A study of Homo sapiens with 12 samples.

Results

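The transcripts that differed when ibrutinib was added on top of SPX5551 were described by setting 3 combination libraries against 3 SPX5551 libraries, which are 6 of the 12 libraries of the study. The cells were REC1, an established human mantle cell lymphoma line, so all libraries come from 1 line. The combination group received ibrutinib and SPX5551 together, the SPX5551 group received SPX5551 without ibrutinib, and both groups share the SPX5551 exposure. The ibrutinib group and the DMSO (solvent) group serve here to set the same addition without SPX5551 beside it. A single library was made of each treatment at 4, 8 and 12 h, and no dose is given in the sources used here. Each column was assigned by the treatment and time in its header, and the 6 columns were those whose headers name the combination or pol5551, the headers' name for SPX5551.

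Ibrutinib is a covalent inhibitor of BTK, a kinase that passes the signal of the B-cell receptor on to calcium release, NFAT, NF-kappaB and MAP kinases. In B cells an active receptor switches on immediate-early transcription factors such as EGR1, secreted factors such as TNF, CCL3 and CCL4, surface activation markers such as CD69 and CD83, and MYC, which drives growth genes. The study's title presents SPX5551 as an inhibitor of CXCR4, the receptor through which the chemokine CXCL12 holds lymphoma cells in their niche.

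Total counts were 19888090, 26600088 and 20240842 in the SPX5551 libraries and 22951827, 28934030 and 24432822 in the combination libraries at 4, 8 and 12 h. The 3 times stood in as replicates (n = 3 per group), and nothing in the labels says whether they came from separate cultures. The p-values measure the spread that additive terms for treatment and time leave over all 12 libraries, DMSO and ibrutinib included. The free-text sample descriptions pair samples with columns of other treatments, against the titles and headers; under that pairing only 136 of the 1043 genes called below kept their direction. The molecule is labelled as genomic DNA, against an RNA protocol, and the values were read as transcript counts. The 6 B-cell markers summed to 2741 to 3804 CPM (counts per 1e6 counts of a library) in the combination and 3135 to 3557 CPM in SPX5551. Of the mantle cell markers, CCND1 and SOX11 were detected and CD5 had at most 10 counts in a library. The 7 myeloid markers summed to at most 1.31 CPM in any of the 6 libraries, with S100A8, S100A9 and FCN1 at 0. The 8 T-cell markers summed to 180.1 to 360 CPM in the combination and 260.4 to 398 CPM in SPX5551, with CD4 at 0. CD3G, CD2 and CD8A reached at most 0.082, 0.035 and 0.251 CPM, so the sum came from the other members. The 8 stromal and epithelial markers summed to 49.7 to 88.2 CPM in the combination and 60.4 to 76.2 CPM in SPX5551. Of these, COL1A2, COL3A1 and DCN reached at most 0.035, 0.049 and 0.164 CPM. Over all tested genes, the combination libraries at 4 and 12 h were most like the ibrutinib library of the same time, while the combination library at 8 h was most like the SPX5551 library of 8 h (r = 0.991 on log2 CPM, across genes, which are not independent).

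Ibrutinib on top of SPX5551 went with lower levels of genes of the B-cell receptor response, NF-kappaB targets, ribosome biogenesis genes and the host transcript of the miR-17 to miR-92 cluster, and with higher levels of ULK1, RAVER1 and SAMD9L among others. By edgeR's quasi-likelihood test with Benjamini-Hochberg adjustment at 0.05 and time as a block, 1043 of 14412 genes passed (7.24%). Of these, 471 were higher (3.27%) and 572 lower (3.97%) with the combination. Most changes were small: 27 genes rose and 56 fell by at least 2-fold in the fit, and the median absolute log2 fold change of the genes that passed was 0.48. The difference had the same sign at 4, 8 and 12 h for 470 of the 471 higher genes and all 572 lower genes. Over all 14412 genes the sign was the same for 5948, and the genes that passed were chosen on these same differences. The 3 combination and 3 SPX5551 values did not overlap for 327 of the higher and 413 of the lower genes, against 17.3% of all genes tested. The count of genes that passed depended on single libraries: it was 343 without the SPX5551 library of 8 h, 395 without the combination library of 12 h, 514 without the combination library of 4 h and 540 without the SPX5551 library of 12 h. The count of higher genes alone was 309 to 311 without the DMSO library of 4 or 8 h and 302 without the ibrutinib library of 12 h. The total was 496 when the 6 libraries were fitted alone with time as a block and 5 with no term for time.

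**Figure D1:**
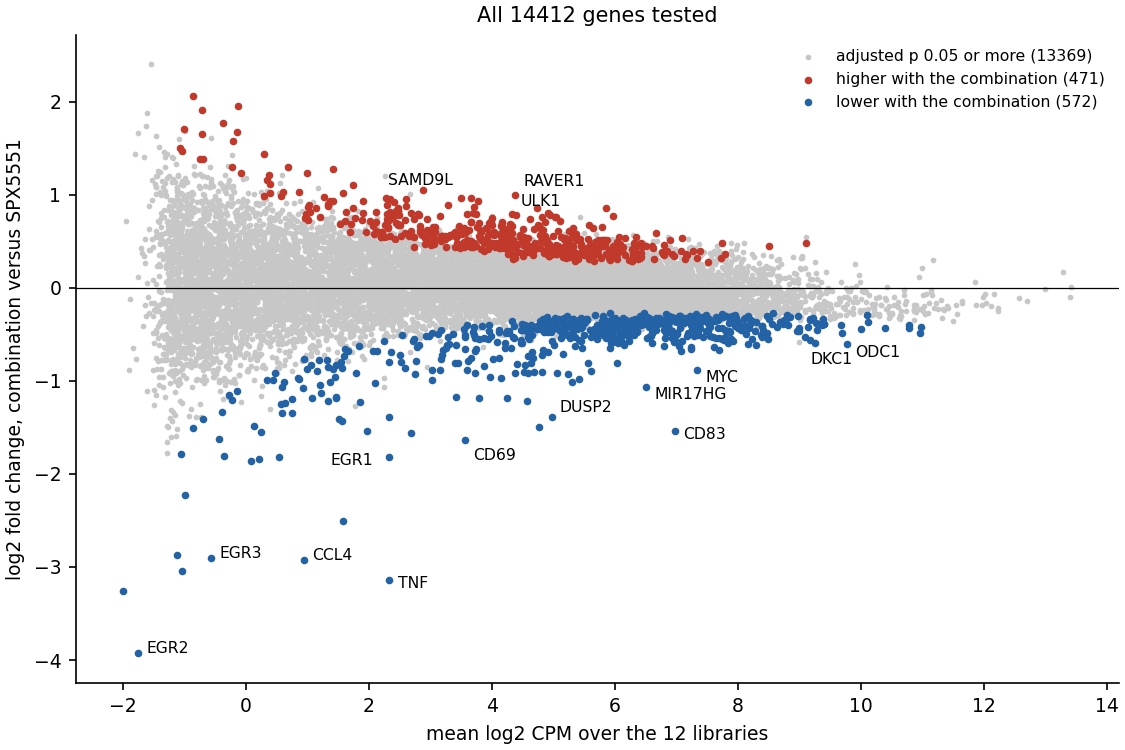
Each point is 1 of the 14412 genes tested, with its mean log2 CPM over the 12 libraries on the horizontal axis and its log2 fold change, combination versus SPX5551, on the vertical axis. Red points are the 471 higher and blue points the 572 lower genes, and TNF, CCL4, EGR2 and EGR3 are among the genes farthest below 0.

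The B-cell receptor early response held the largest falls. Of its 24 listed genes, all of them tested, 13 fell (54.2%, against 3.97% of all genes) and none rose. The median log2 fold change was -0.63, against 0.02 over all genes. This list and those below were chosen with earlier results of these data known, so their shares are descriptions. TNF, a secreted inflammatory cytokine, stood at 10.7, 8.82 and 18.6 CPM at 4, 8 and 12 h with SPX5551 and at 0.438, 1.87 and 1.91 CPM with the combination. Every combination value of TNF lay below every SPX5551 value, and its log2 fold change was -3.14 ± 0.34 (SE, adjusted p = 0.000217). CCL4, a chemokine that activated B cells release, stood at 7.36, 2.81 and 5.20 CPM with SPX5551 and at 1.01, 0.579 and 0.413 CPM with the combination. Its groups did not overlap and its log2 fold change was -2.93 ± 0.28 (adjusted p = 9.71e-05). CCL3, its neighbour in function, moved from 7.51, 5.09 and 8.17 CPM to 2.02, 1.26 and 0.525 CPM (log2 fold change -2.50, adjusted p = 0.000266). CCL3 and CCL4 have near-identical copies, CCL3L3 and CCL4L2, with log2 fold changes of -3.04 and -1.86, and how reads were shared among them is not known.

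CD69, an early surface marker of lymphocyte activation, stood at 19.6, 18.4 and 26.1 CPM with SPX5551 and at 4.78, 6.84 and 9.11 CPM with the combination, without overlap (log2 fold change -1.63 ± 0.17, adjusted p = 0.000131). CD83, a maturation marker of antigen-presenting cells, fell from 285, 146 and 209 CPM to 128, 66.6 and 41.1 CPM (log2 fold change -1.53, adjusted p = 0.000807). Its combination level was lowest at 12 h, where the difference was widest. DUSP2, a nuclear phosphatase that switches off MAP kinases, went from 49.6, 43.6 and 50.5 CPM to 17.8, 21.7 and 15.6 CPM (log2 fold change -1.38, adjusted p = 0.000131). LTA, which encodes lymphotoxin alpha, was similar at all 3 times within each group, at 7.21, 5.85 and 8.22 CPM against 2.76, 2.69 and 2.63 CPM (log2 fold change -1.39, adjusted p = 0.000777). The 12 largest falls among genes averaging at least 2 on the log2 CPM scale also held FJX1 (-1.56), the ribosomal protein pseudogene RPS27AP16 (-1.19), HIVEP3, a zinc finger protein (-1.18), and CSF1, the macrophage colony-stimulating factor (-1.17). RPS27AP16 stood at 25.4, 25.8 and 34.0 CPM with SPX5551 and at 5.22, 14.9 and 18.5 CPM with the combination. With DMSO it stood at 13.7, 13.3 and 12.8 CPM.

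The EGR transcription factors, which carry the early receptor signal into later gene expression, also fell. EGR1 stood at 8.34, 12.9 and 10.4 CPM with SPX5551 and at 0.877, 6.16 and 2.55 CPM with the combination, so that its groups did not overlap but the 8 h pair was closer than the others (log2 fold change -1.82 ± 0.39, adjusted p = 0.0120). EGR3 stood at 1.60, 1.18 and 2.08 CPM against 0.131, 0.136 and 0.375 CPM (log2 fold change -2.90, adjusted p = 0.000692). EGR2 was rare, at 0.463, 0.494 and 0.396 CPM with SPX5551, and had no count in the combination libraries of 4 and 12 h and 0.0681 CPM at 8 h (adjusted p = 0.0244); no fold is given for so few counts. NR4A1 and NFATC1, further early-response genes, fell by 0.59 and 0.39 on the log2 scale. FOS, a partner in the AP-1 factor, did not pass, with a log2 fold change of -0.67 and an adjusted p of 0.244, nor did JUNB (0.41, adjusted p = 0.283). None of the 11 tested genes of MAP kinase feedback passed, although all 11 had negative log2 fold changes between -0.66 and -0.12; PHLDA1, the nearest to passing, had an adjusted p of 0.0717.

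The EGR1 promoter is shown as that of an early-response gene with boxes bound by serum response factor, through which MAP kinase signals reach it. RefSeq gave promoters for only 13 of the 24 listed genes, and among these 13 only that of EGR1 had such a box. The window is the 250 bases before the RefSeq start, chr5:138465229-138465478, plus strand, GRCh38.p14, with capitals on the 2 CArG boxes that a search of both strands found.
EGR1: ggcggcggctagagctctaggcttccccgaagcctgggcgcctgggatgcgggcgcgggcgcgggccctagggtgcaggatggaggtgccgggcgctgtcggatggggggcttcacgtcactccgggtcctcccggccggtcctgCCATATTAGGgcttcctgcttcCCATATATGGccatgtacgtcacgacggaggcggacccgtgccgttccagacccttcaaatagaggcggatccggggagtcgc
Such a box was present in 0.8% of the 7369 promoters of tested genes that RefSeq gave, and in 2.1% of those of the lower genes (7 of 326). A match of letters is a description and shows no binding.

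**Figure D2:**
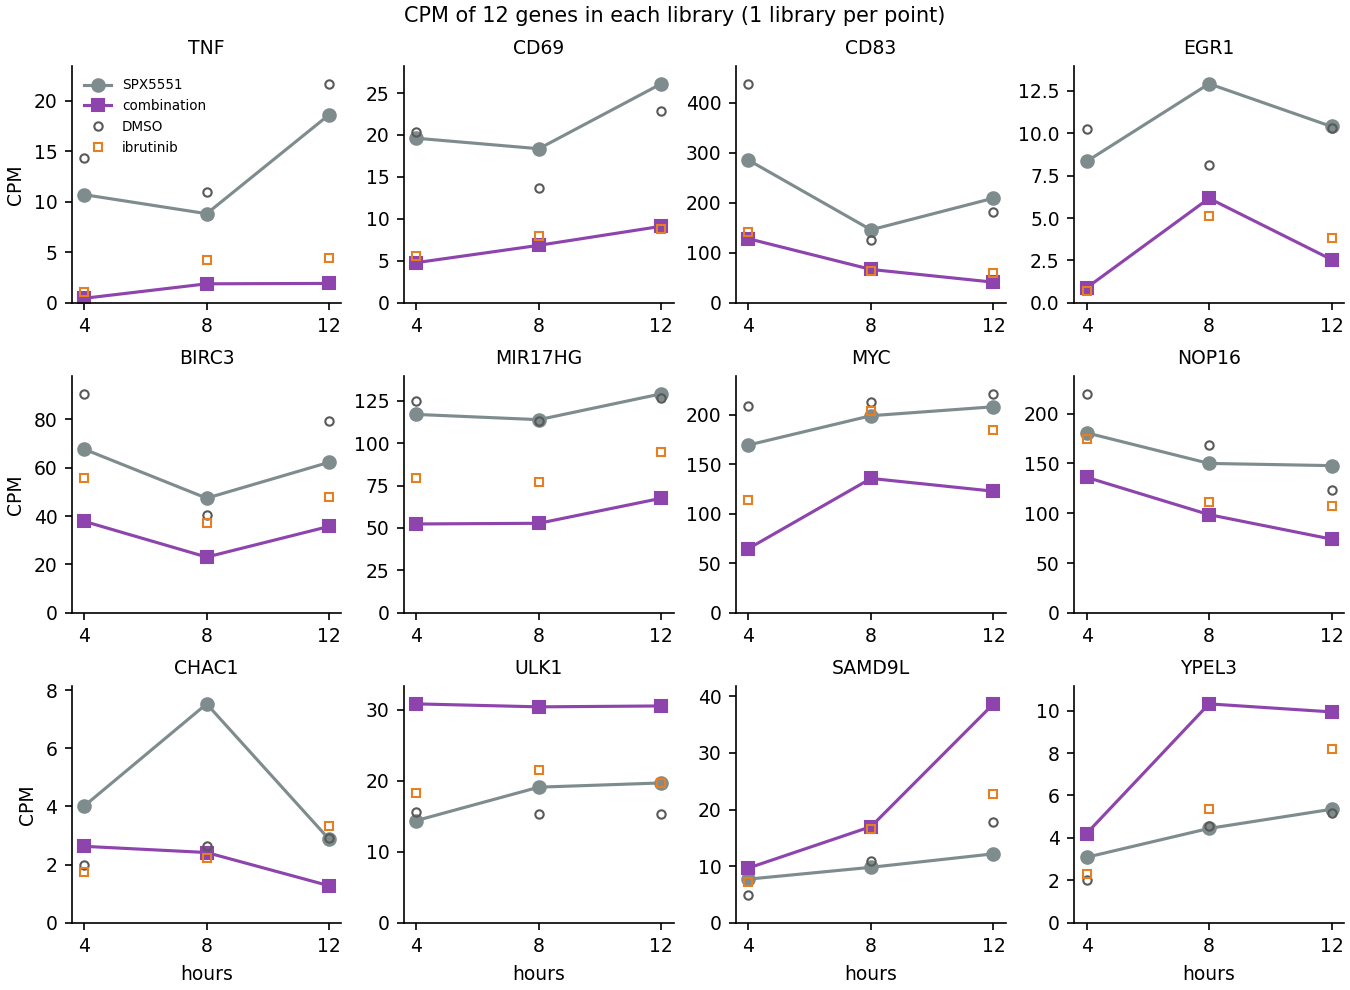
CPM (vertical axis, from 0) at 4, 8 and 12 h (horizontal axis) for 12 genes, with 1 library per point. Grey circles joined by lines are SPX5551, purple squares joined by lines the combination, open circles DMSO and open squares ibrutinib; TNF, CD69 and MIR17HG lie lower with the combination at every time, and ULK1 lies higher.

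NF-kappaB targets fell as a further group. Of 21 tested genes 10 fell (47.6%, against 3.97% of all genes) and none rose, with a median log2 fold change of -0.63. The members that fell include the pathway's own inhibitors. NFKBIA, which holds NF-kappaB in the cytoplasm, stood at 65.8, 55.8 and 68.0 CPM with SPX5551 and at 36.5, 36.8 and 23.6 CPM with the combination (log2 fold change -0.98 ± 0.17, adjusted p = 0.00513). NFKBID, a nuclear inhibitor family member, went from 43.6, 28.6 and 43.8 CPM to 23.1, 17.0 and 10.6 CPM (log2 fold change -1.22, adjusted p = 0.00488); it overlaps another gene on the same strand, whose reads cannot be told apart from it here. TNFAIP3, the deubiquitinase A20 that dampens the pathway, went from 37.6, 23.5 and 30.9 CPM to 24.5, 13.6 and 12.3 CPM (log2 fold change -0.90, adjusted p = 0.00307). Its groups overlapped across times, while each time on its own was lower with the combination.

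BIRC3, an inhibitor of apoptosis that acts in TNF receptor signalling, stood at 67.7, 47.4 and 62.3 CPM with SPX5551 and at 37.8, 23.1 and 35.7 CPM with the combination, without overlap (log2 fold change -0.90, adjusted p = 0.000807). ICAM1, an adhesion molecule, went from 59.4, 40.8 and 57.4 CPM to 22.6, 27.3 and 26.8 CPM (log2 fold change -1.01, adjusted p = 0.00498). TNFAIP2 fell by 0.82, NFKB2, a subunit precursor of the alternative pathway, by 0.71, LTB by 0.64, CD40 by 0.54 and NFKBIE by 0.39 on the log2 scale. RELB, the partner of NFKB2, did not pass at -0.40 (adjusted p = 0.241). The count of NF-kappaB targets that fell was 4 without the 4 h time point, 10 without 8 h and 6 without 12 h. It was also 6 without either the SPX5551 or the combination library of 12 h. For the early response it was 10, 13 and 11 without the 3 time points. Over all genes the count that fell was 84, 278 and 269 without the 3 time points. It was 305 without the SPX5551 and 225 without the combination library of 12 h. In some settings a member rose: 1 gene of each list without 12 h, and 2 NF-kappaB targets with no filter on low counts. A single NF-kappaB target, 1, rose without the SPX5551 library of 12 h or the combination library of 8 h. For the early response 1 gene rose without the SPX5551 library of 4 h.

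The NFKBIA promoter is shown because the gene is a textbook direct target of NF-kappaB. The window is chr14:35404750-35404999, minus strand, GRCh38.p14 (RefSeq), with capitals on the 2 matches to the kappaB letters GGAANNTCC, searched on both strands.
NFKBIA: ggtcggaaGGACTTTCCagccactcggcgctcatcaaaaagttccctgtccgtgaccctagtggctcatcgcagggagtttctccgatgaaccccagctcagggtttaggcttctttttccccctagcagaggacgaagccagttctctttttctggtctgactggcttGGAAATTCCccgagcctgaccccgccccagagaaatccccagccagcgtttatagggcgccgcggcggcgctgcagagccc
These letters were present in 4 of the 10 promoters that RefSeq gave for the NF-kappaB list, in 5.2% of those of the lower genes and in 3.8% of all.

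The smallest p of all 14412 genes was that of MIR17HG, the long RNA from which the miR-17 to miR-92 cluster is cut, an oncogenic cluster often gained in B-cell lymphoma; it is named here after its values were seen. MIR17HG (chromosome 13, 91347820 to 91354579, GRCh38, GENCODE 29) stood at 117, 114 and 129 CPM with SPX5551 and at 52.4, 52.8 and 67.5 CPM with the combination. The groups did not overlap, and the log2 fold change was -1.07 ± 0.09 (adjusted p = 2.21e-05). The DMSO libraries had 125, 113 and 127 CPM and the ibrutinib libraries 79.5, 77.2 and 95.0 CPM of it. MIR106B, which lies within MCM7 on chromosome 7, was near 1 CPM and also fell (1.96, 1.63 and 1.54 CPM to 0.920, 0.715 and 0.938 CPM, adjusted p = 0.0439). Its host gene MCM7, a replication helicase subunit, did not pass (log2 fold change -0.17, adjusted p = 0.235). MIR106B lies on the same strand as MCM7, whose reads cannot be told apart from it here. MIR3142HG, the host of miR-146a, had at most 0.644 CPM with SPX5551 and at most 0.0681 CPM with the combination (adjusted p = 0.0258).

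Mature miRNAs were not measured, only host transcripts and the few reads assigned to MIR106B. Those of the cluster, 1 arm of each, are shown with miR-106b to make their shared seeds visible; sequences are from RefSeq (GRCh38.p14) and capitals mark the seed, bases 2 to 8.
hsa-miR-17-5p: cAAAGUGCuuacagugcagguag
hsa-miR-20a-5p: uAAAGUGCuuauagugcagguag
hsa-miR-18a-5p: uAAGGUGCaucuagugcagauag
hsa-miR-19a-3p: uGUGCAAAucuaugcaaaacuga
hsa-miR-19b-3p: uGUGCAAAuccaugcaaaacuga
hsa-miR-92a-3p: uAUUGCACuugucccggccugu
hsa-miR-106b-5p: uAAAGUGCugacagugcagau
The seed AAAGUGC is common to miR-17-5p, miR-20a-5p and miR-106b-5p, that of miR-18a-5p is AAGGUGC, and miR-19a-3p and miR-19b-3p share GUGCAAA.

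Growth genes fell by smaller factors. MYC itself, which the early-response list also holds, stood at 169, 199 and 208 CPM with SPX5551 and at 64.9, 136 and 123 CPM with the combination, without overlap (log2 fold change -0.88 ± 0.15, adjusted p = 0.00417). In the list of the MYC network and growth targets, 10 of 22 tested genes fell and 2 rose (54.5%, against 7.24% of all genes). The median log2 fold change was -0.28. Without the combination library of 12 h 4 fell and 1 rose, without the 4 h time point 2 fell and 1 rose, and 1 rose without the combination library of 8 h or the SPX5551 library of 8 or 12 h. Over all genes 225 fell and 170 rose without the combination library of 12 h, and 84 fell and 45 rose without 4 h. The all-gene rises were 535, 100 and 235 without the latter 3 libraries. The 2 listed genes that rose with all libraries, MXD3 and MXD4, are partners of MAX that repress where MYC activates. MXD3 went from 1.75, 3.23 and 3.86 CPM to 4.43, 7.52 and 6.79 CPM (log2 fold change 1.11, adjusted p = 0.00432) but overlaps RAB24 on the same strand, and MXD4 went from 5.46, 5.40 and 9.16 CPM to 6.40, 12.6 and 16.4 CPM (0.79, adjusted p = 0.0123). ODC1, the first enzyme of polyamine synthesis, fell by 0.61 on the log2 scale (adjusted p = 0.00506). NME1, a nucleotide kinase whose reads a read-through gene shares, fell by 0.65, the mitochondrial chaperones HSPE1 and HSPD1 by 0.57 and 0.44, SRM by 0.45, and CDK4, a kinase of the G1 phase, by 0.43. The E-box letters CACGTG, on either strand, were in the windows of 9 of the 16 listed genes with a RefSeq promoter, of 14.7% of the lower genes, of 10.3% of the higher genes and of 9.3% of all.

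Ribosome biogenesis genes, which make and process ribosomal RNA in the nucleolus, moved one way. Of 28 tested genes 17 fell (60.7%, against 3.97% of all genes) and none rose. All 28 log2 fold changes were negative, between -0.68 and -0.02, with a median of -0.42. NOP16 stood at 181, 150 and 148 CPM with SPX5551 and at 136, 98.6 and 74.0 CPM with the combination (log2 fold change -0.68 ± 0.11, adjusted p = 0.00314). DKC1, the pseudouridine synthase of the nucleolus, went from 781, 653 and 616 CPM to 640, 402 and 351 CPM (-0.60, adjusted p = 0.00324). TSR1 and NOLC1, a maturation factor of the small subunit and a nucleolar phosphoprotein, each fell by 0.53. From the earliest to the latest time the median difference of the list was -0.23, -0.39 and -0.62. No member passed the test of a change with time (smallest adjusted p = 0.414). The count that fell was 5 without the 4 h time point, 11 without 8 h and 9 without 12 h. Over all genes it was 84, 278 and 269. E-box letters were in 1 of the 18 windows of these genes.

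Some genes of amino acid shortage and unfolded protein stress fell too. Of 24 tested, 8 fell (33.3%, against 3.97% of all genes) and none rose, with a median of -0.35. ATF3, a stress-induced transcription factor, stood at 5.30, 7.75 and 7.03 CPM with SPX5551 and at 3.16, 3.40 and 1.99 CPM with the combination, and at 3.74, 2.09 and 4.18 CPM with DMSO (log2 fold change combination versus SPX5551 -1.23 ± 0.25, adjusted p = 0.00974). TRIB3, a pseudokinase induced by the same pathway, went from 29.1, 43.1 and 48.8 CPM to 21.4, 25.4 and 17.9 CPM (-0.90, adjusted p = 0.00647), with 30.0, 31.5 and 33.1 CPM in DMSO. CHAC1, which degrades glutathione, stood at 4.01, 7.53 and 2.87 CPM against 2.63, 2.42 and 1.28 CPM (-1.18, adjusted p = 0.0343), and its SPX5551 value at 8 h was the highest of the 12 libraries. DDIT3, the CHOP factor, fell by 0.59, HERPUD1 by 0.48, XBP1 by 0.47, DNAJB9 by 0.45 and PSAT1 by 0.43 on the log2 scale. DDIT3 stood at 71.9, 86.5 and 96.7 CPM with SPX5551 and at 56.6, 58.3 and 52.4 CPM with the combination. With DMSO it stood at 55.7, 61.9 and 71.5 CPM, and CHAC1 at 1.98, 2.66 and 2.92 CPM. Without the 4 h time point 2 genes of this list fell, without the combination library of 12 h also 2, and without the SPX5551 library of 8 h 3. Over all genes 84, 225 and 243 fell in these settings.

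In sterol and fatty acid synthesis 6 of 26 tested genes fell and 1 rose (26.9%, against 7.24% of all genes), with a median of -0.28. MSMO1, a demethylating enzyme of the cholesterol pathway, went from 117, 169 and 146 CPM to 83.3, 117 and 91.4 CPM (log2 fold change -0.56, adjusted p = 0.00641). INSIG1, the sensor that retains the pathway's activator, fell by 0.55, SQLE by 0.43 and FDFT1 by 0.40. CYP51A1, an enzyme of the same pathway, was the member that rose (0.79 ± 0.23, adjusted p = 0.0455). Without the combination library of 12 h 1 gene fell and none rose, and 2 and 3 fell without the SPX5551 library of 4 and 8 h. Over all genes 225 fell without the former library, and 647 and 243 without the latter ones. No gene of the list rose without the DMSO library of 4 or 8 h, or without the ibrutinib, SPX5551 or combination library of 4 or 12 h. Over all genes 170 to 483 rose in these settings.

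The genes with the largest rises were of mixed function, taken, like the falls, among genes averaging at least 2 on the log2 CPM scale. Under that limit the 12 largest rises were smaller than the 12 largest falls; below it, genes that passed rose by up to 2.06. RAVER1, an RNA-binding splicing cofactor, stood at 10.1, 13.7 and 18.6 CPM with SPX5551 and at 26.7, 26.9 and 29.4 CPM with the combination, without overlap (log2 fold change 1.0 ± 0.14, adjusted p = 0.00109); it overlaps genes on both strands. MIB2, a ubiquitin ligase, went from 6.28, 9.73 and 9.71 CPM to 15.9, 16.9 and 16.7 CPM (0.96, adjusted p = 0.000857). ARHGAP33 went from 8.49, 12.2 and 12.7 CPM to 18.8, 20.1 and 24.6 CPM (0.93, adjusted p = 0.000355). The others of the 12 were AAK1, an endocytic kinase (0.95), EVI5L (0.96), ZCCHC24 (0.92), MAN2B2, a lysosomal mannosidase (0.89), COL9A2 (0.88), YPEL3, SAMD9L, the processed pseudogene ENSG00000243679 (1.05) and ENSG00000265517.1 (0.97), for which no symbol was found.

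The higher genes had longer transcripts and more GC than the rest. Their median transcript length was 4270 bases and their median GC content 60.4%, against 3053 bases and 48.5% over all tested genes and 2518 bases and 49.2% for the lower genes. Across genes the log2 fold change correlated with transcript length at Spearman's rho of 0.25, and the difference at 4, 8 and 12 h at 0.12, -0.03 and 0.41. With GC content the log2 fold change correlated at 0.09, and the difference at 4, 8 and 12 h at 0.02, 0.34 and -0.10. The level within a library, relative to the other libraries, was also set against transcript length. At the 3 times its rho was -0.20, -0.41 and -0.39 in SPX5551 and -0.03, -0.31 and 0.25 in the combination. With the trends on length and GC removed from the counts, 1927 genes passed, 34.2% of them higher, and 885 of the 1043 genes were among them. Scaling by library size alone gave 68.9% higher among the genes that passed, against 45.2% with the trimmed mean of M values.

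Among genes of autophagy and the lysosome, 4 of 27 rose (14.8%, against 3.27% of all genes) and none fell, with a median of 0.10. ULK1, the kinase that starts autophagy, stood at 14.4, 19.1 and 19.7 CPM with SPX5551 and at 30.9, 30.4 and 30.6 CPM with the combination, without overlap (log2 fold change 0.79 ± 0.11, adjusted p = 0.00112). ATG2A, a lipid-transfer protein of the growing autophagosome, went from 12.5, 18.4 and 20.7 CPM to 22.4, 32.2 and 33.3 CPM (0.78, adjusted p = 0.00135). ATG16L2 rose by 0.44 and the protease CTSD by 0.33. The count that rose was 2 without the combination or the SPX5551 library of 12 h, and CTSD lost its call in 23 of 28 settings. Over all genes 170 rose without that combination library and 235 without that SPX5551 library. TFEB, the master regulator of the lysosome, did not pass (0.02, adjusted p = 0.933).

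Of the FOXO targets and quiescence genes, 4 of 18 rose and 1 fell (27.8%, against 7.24% of all genes), with a median of 0.14. YPEL3, a growth-suppressing gene, stood at 3.09, 4.45 and 5.35 CPM against 4.21, 10.3 and 9.94 CPM (0.89 ± 0.18, adjusted p = 0.00854). SESN3, which restrains mTORC1, went from 20.9, 23.8 and 21.9 CPM to 29.2, 33.0 and 46.9 CPM (0.68, adjusted p = 0.0102). SESN1 rose by 0.43 and TXNIP by 0.33, while TSC22D3, a glucocorticoid-induced FOXO target, fell by 0.49. The list's median differences were -0.12, 0.07 and 0.55 in order of time, and no member rose without the SPX5551 library of 8 h and 1 without that of 12 h or the combination library of 4 or 12 h. Over all genes 100, 235, 178 and 170 rose in these settings, in that order.

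Interferon-stimulated genes rose in part. Of 26 tested genes 6 rose and 1 fell (26.9%, against 7.24% of all genes), with a median of 0.36. SAMD9L, an antiviral growth suppressor, stood at 7.72, 9.81 and 12.2 CPM with SPX5551 and at 9.69, 17.0 and 38.7 CPM with the combination (log2 fold change 0.97 ± 0.19, adjusted p = 0.00846). SAMD9 went from 19.4, 22.7 and 28.2 CPM to 25.8, 30.5 and 78.5 CPM (0.78, adjusted p = 0.0215), so that both genes were highest in the combination library of 12 h and their groups overlapped. IRF7, a transcription factor of the interferon response, rose by 0.58, RIGI, a sensor of viral RNA, by 0.54, STAT2 by 0.36 and OAS2, rare in all libraries, by 0.99. ISG15 and MX1, standard members of the list, did not pass (0.42, adjusted p = 0.249, and 0.14, adjusted p = 0.428). CXCL10, a chemokine that interferon and NF-kappaB both induce, fell from 64.0, 37.0 and 25.3 CPM to 35.9, 13.3 and 4.91 CPM (-1.50, adjusted p = 0.00348). The count that rose was 1 without either the combination library of 4 h or that of 12 h, 1 without the SPX5551 library of 12 h and 0 without that of 8 h. Over all genes it was 178, 170, 235 and 100 in these settings, in that order.

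The SAMD9L promoter is shown as that of the interferon-stimulated gene with the largest rise among the 12. The window is chr7:93148386-93148635, minus strand, GRCh38.p14 (RefSeq), with capitals on the 1 match to the letters AAANNGAAA of the interferon-stimulated response element, searched on both strands.
SAMD9L: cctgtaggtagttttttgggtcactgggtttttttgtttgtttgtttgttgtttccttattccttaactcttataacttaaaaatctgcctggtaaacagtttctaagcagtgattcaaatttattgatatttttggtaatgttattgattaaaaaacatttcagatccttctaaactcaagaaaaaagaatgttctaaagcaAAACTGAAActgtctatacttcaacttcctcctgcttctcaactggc
These letters were in 14 of the 16 windows given for the list, in 5.3% of those of the higher genes and in 6.0% of all.

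The targets of both agents did not pass. BTK stood at 320, 294 and 364 CPM with SPX5551 and at 273, 265 and 342 CPM with the combination (log2 fold change -0.16 ± 0.08, adjusted p = 0.237). CXCR4 stood at 22.1, 26.7 and 21.0 CPM against 16.6, 32.5 and 24.7 CPM (0.04 ± 0.13, adjusted p = 0.857). CXCL12, the ligand of CXCR4, had no count in these 6 libraries.

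Homing receptors and adhesion genes showed no common direction: 3 of 25 fell, 1 rose and the median was 0.00. In the main fit members of this list passed more often than all genes (7.24%, with 3.97% lower and 3.27% higher). GPR183, the oxysterol receptor that places B cells in the follicle, stood at 27.2, 29.6 and 29.6 CPM against 12.3, 14.5 and 20.3 CPM (-0.90 ± 0.12, adjusted p = 0.00118); UBAC2 overlaps it on the opposite strand. CD44, an adhesion receptor for hyaluronan, went from 283, 203 and 208 CPM to 179, 140 and 149 CPM (-0.56, adjusted p = 0.00559). CXCR3, the receptor of CXCL10, was rare, at 2.06, 2.43 and 1.39 CPM against 0.570, 0.715 and 0.375 CPM (-1.82, adjusted p = 0.00386). S1PR4, a sphingosine-1-phosphate receptor, stayed under 1 CPM and rose by 1.50 (adjusted p = 0.0336). No gene of the list rose when any one SPX5551 or combination library, or the DMSO library of 8 h, was left out. Over all genes 100 to 535 rose in these settings.

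In the main fit, genes of the receptor pathway and of B-cell identity passed about as often as all genes (7.24%). Of 25 B-cell receptor signalling components 2 (8.0%) fell: PTPN6, the phosphatase SHP-1 (from 383, 399 and 457 CPM to 254, 300 and 295 CPM, adjusted p = 0.00233) and the kinase FYN (-0.45, adjusted p = 0.00678). In the B-cell identity list 1 of 16 tested genes (6.2%) fell, IKZF3, an Ikaros-family factor (-0.47, adjusted p = 0.0151). The identity list's median differences were -0.42, -0.095 and 0.0025 at the 3 times, and 13 of its 16 log2 fold changes were negative. With the trends on length and GC removed, 7 of the 25 signalling components were lower and 1 higher. In that setting 1268 of all 14412 genes were lower and 659 higher, so the components passed more often than all genes. Of 10 plasma cell genes 3 (30.0%) fell: IRF4 by 0.53, XBP1, shared with the stress list, by 0.47 and DERL3 by 0.79. In the BCL2 family HRK (-0.76, adjusted p = 0.0393) alone of 14 tested genes passed, a share of 7.1%, near that of all genes. BCL2L1, which encodes BCL-XL, had a log2 fold change of -0.42 (adjusted p = 0.0503) and BCL2 of -0.34 (adjusted p = 0.108). Replication and mitosis each had 1 of 20 genes higher (5.0%, against 3.27% of all genes), CDT1 (0.43, adjusted p = 0.0280) and CENPE (0.54, adjusted p = 0.0405). CENPE was higher at 4 and 12 h but not at 8 h (log2 difference -0.0059) and kept its call in 12 of 28 settings. In cell cycle entry CCNE2 rose by 0.60 and CDK4 fell, of 14 tested genes (14.3%). Of 17 p53 targets SESN1 rose and AEN fell, and of 25 genes of hypoxia and glycolysis PFKL and NDRG1 rose while LDHA and VEGFA fell. Apart from the signalling components, these counts of 1 to 3 genes came to between 0 and 4 when 1 library was left out. Over all genes 343 to 1302 passed in these settings.

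**Figure D3:**
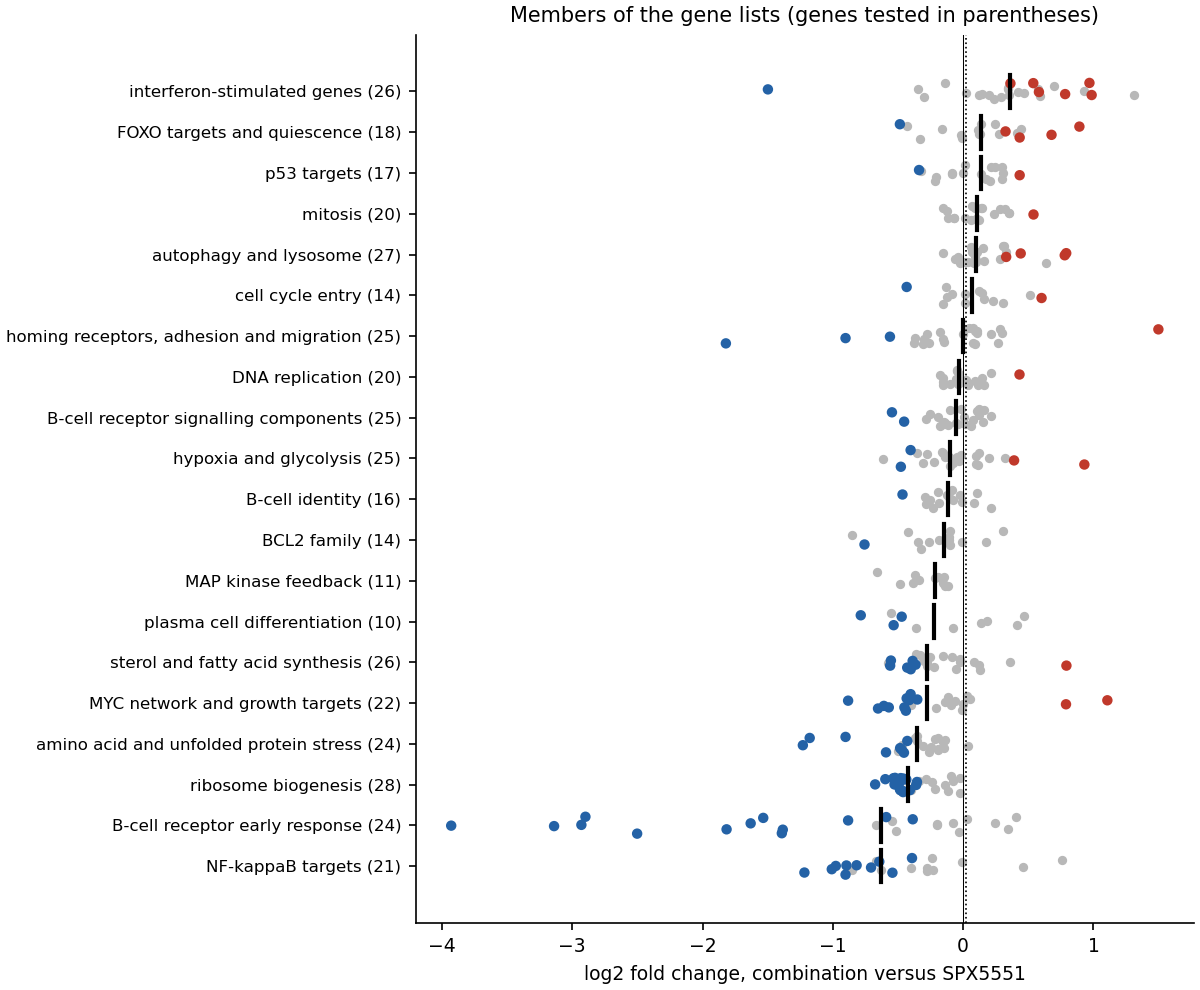
Each point is a tested member of a gene list (rows, with the number tested in parentheses) at its log2 fold change, combination versus SPX5551. Red and blue points passed at an adjusted p under 0.05, grey points did not, black bars are list medians and the dotted line is the median of all genes; the medians of the NF-kappaB and early-response lists are both -0.63, and that of the interferon list is 0.36.

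The same addition can be read without SPX5551, from ibrutinib versus DMSO, which shares no library with the comparison above. There 15 genes passed (0.104%), all lower, and all 15 were among the 572. Besides DUSP2, CD83, LTA, TNF, EGR3, CD69, CCL3, CCL4, CCL3L3, NFKBIA, NFKBID, TNFAIP2 and MIR17HG they were CD180, an activating surface receptor related to the toll-like family, and LINC01480. Of the 1043 genes, 970 (93.0%) had the same sign in both comparisons, against 71.8% of all tested genes, and Pearson's r across the 1043 was 0.80. Both values are of fits over 3 times; between single libraries of 1 time, 60.3%, 53.1% and 55.1% of all genes had the same sign at 4, 8 and 12 h, with r of 0.19, 0.12 and 0.14. The median log2 fold change of the 471 higher genes in ibrutinib versus DMSO was 0.19, against 0.52 with SPX5551 present, and that of the 572 lower genes was -0.19 against -0.46; the genes were chosen on the latter values. Ibrutinib versus DMSO also correlated with transcript length across genes (rho 0.45), and the part of length in the shared sign was not tested.

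**Figure D4:**
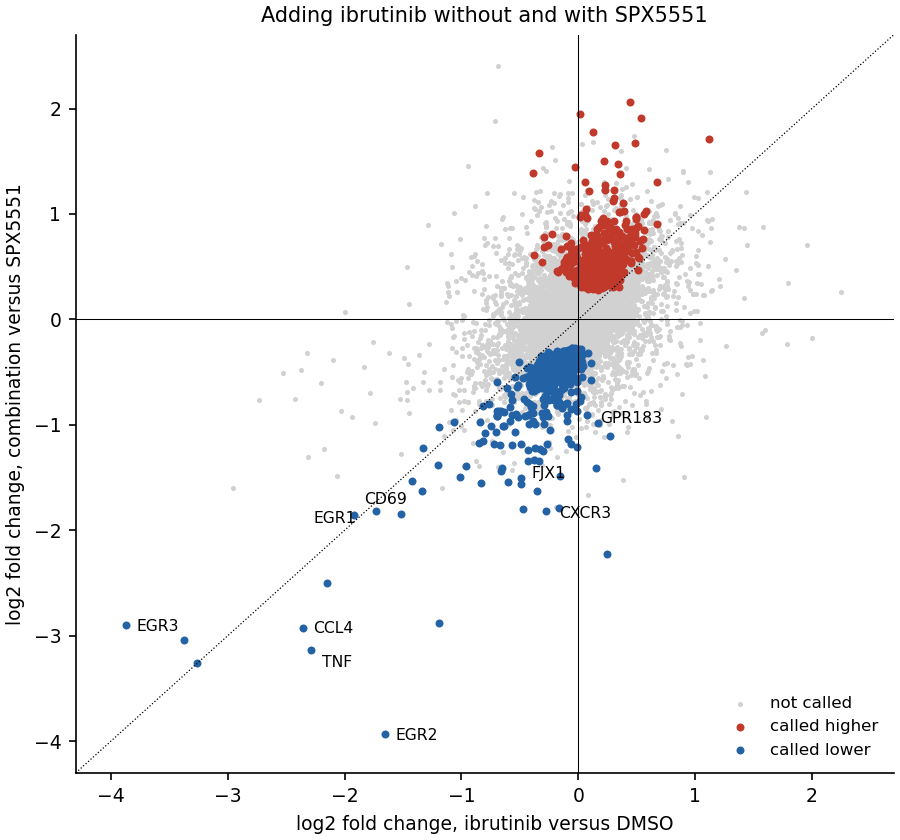
Log2 fold change of ibrutinib versus DMSO (horizontal axis) and of the combination versus SPX5551 (vertical axis) for each tested gene; red and blue points are the 471 higher and 572 lower genes, grey points the rest, and the dotted line marks equal values. TNF, CCL4 and EGR3 are far below 0 on both axes, while GPR183 and CXCR3 are lower on the vertical axis than on the horizontal one.

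No gene passed the test of whether the effect of ibrutinib differed with and without SPX5551 (0 of 14412, smallest adjusted p = 0.285 by edgeR). At an unadjusted p under 0.05 there were 845, and DESeq2 called 2 and limma-voom 0. The smallest p-values belonged to PALD1 and GPR183. GPR183 was at 26.4, 33.1 and 32.5 CPM with DMSO and at 25.2, 30.9 and 42.4 CPM with ibrutinib, where its groups overlapped, and its difference of effects was -0.98 ± 0.17 (adjusted p = 0.285). PALD1, a paladin phosphatase-like protein, stood at 17.0, 19.6 and 19.7 CPM with SPX5551, 9.73, 9.57 and 9.56 CPM with the combination, 15.9, 21.4 and 20.1 CPM with DMSO and 16.6, 18.1 and 18.6 CPM with ibrutinib. Its difference of effects was -0.86 ± 0.15 (adjusted p = 0.285). FJX1 (-1.07), MIB2 (0.88) and LAMP5 (-0.66) followed, each with an adjusted p of 0.634. With the 12 h time point left out, 109 genes passed this test.

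A linear change with time of the difference between the combination and SPX5551 passed for 2 genes (0.0139%). EBI3, a cytokine subunit induced by NF-kappaB, stood at 53.9, 46.8 and 32.0 CPM with SPX5551 and at 91.9, 41.4 and 11.7 CPM with the combination, higher at 4 h and lower at 12 h. It stood at 91.9, 42.8 and 23.55 CPM with DMSO and at 88.4, 32.0 and 14.1 CPM with ibrutinib. At 4 h its SPX5551 library was thus the one apart. MRPL12, a mitochondrial ribosomal protein, went from 1.24 to 3.80 and 8.07 CPM with SPX5551 and from 12.1 to 10.2 and 5.14 CPM with the combination. With DMSO it stood at 4.81, 3.98 and 5.54 CPM and with ibrutinib at 2.37, 3.06 and 6.11 CPM. MRPL12 overlaps another gene on the same strand. From 4 to 12 h the log2 difference changed by -2.20 for EBI3 and by -3.82 for MRPL12 (edgeR adjusted p = 0.0143 for each). Each time has 1 library per treatment, so a time and its library cannot be told apart, and neither gene passed without the SPX5551 library of 4 h (adjusted p = 0.950) or of 12 h (0.945). The count of genes that passed this test was 0 without any one SPX5551 library, 5 without any one DMSO library, 22 to 24 without an ibrutinib library, and 369, 215 and 3 without the combination library of 4, 8 and 12 h. CCNG2, a cyclin of quiescent cells and FOXO target, came next, from 15.6, 23.3 and 22.7 CPM to 7.28, 21.3 and 36.0 CPM, with a change of 1.77 and an adjusted p of 0.0591. It stood at 7.43, 20.7 and 27.6 CPM with DMSO and at 7.26, 23.9 and 33.3 CPM with ibrutinib. At 4 h its SPX5551 library, too, was the one apart. ETV1 and TSPAN11 followed, with changes of 1.60 (adjusted p = 0.105) and -1.73 (adjusted p = 0.136).

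**Figure D5:**
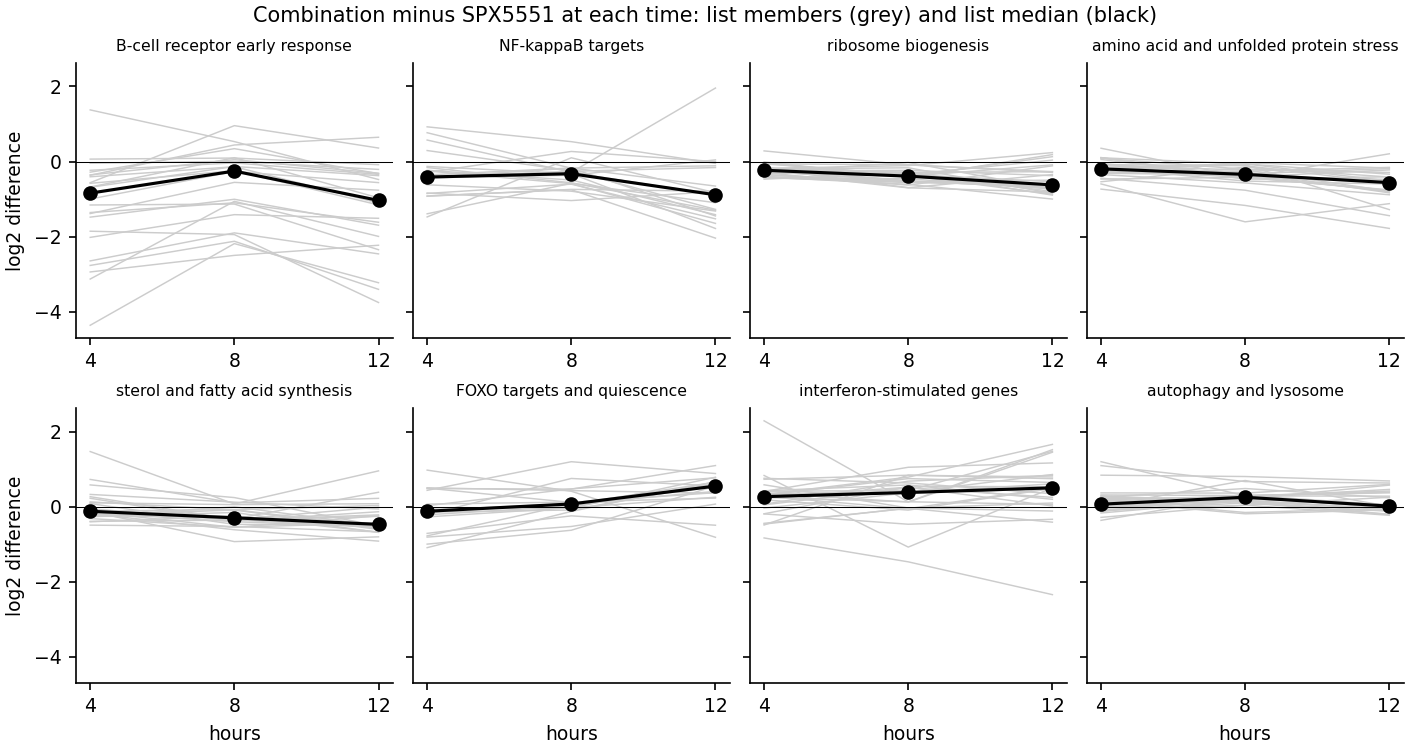
Log2 difference between the combination and the SPX5551 library (vertical axis) at 4, 8 and 12 h (horizontal axis) for the members of 8 gene lists (grey lines) and their median (black). The ribosome biogenesis median goes from -0.23 to -0.39 and -0.62, and the early-response median is nearest 0 at 8 h, at -0.25.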

How the data were processed

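RNA was measured in 12 libraries of REC1 cells, 6 of which make up the comparison. Per the labels' protocols, poly(A) RNA was selected and a directional kit and a NextSeq2000 were used; per the submitters' processing notes, BWA and hg38 were used. For the counter, annotation, strand setting and versions, nothing is given in the sources used here. The authors deposited raw counts for 60483 Ensembl genes and a table of log2 CPM, the latter used only in an alternative.

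Genes were kept with filterByExpr by treatment (14412), scaled by TMM and tested with edgeR 4.0.16 (R 4.3.3) by the quasi-likelihood F-test, with treatment and time as additive terms over all 12 libraries (6 residual degrees of freedom) and Benjamini-Hochberg adjustment over all tested genes at 0.05. The difference of ibrutinib effects was a contrast of the same fit; the change with time was linear in hours and left 3 residual degrees of freedom. SE is the absolute log2 fold change over the square root of F. CPM of single genes is per 1e6 counts of tested genes, with the library size scaled by TMM. The marker sums are per 1e6 total counts without that scaling. Differences at single times use log2 CPM with a prior count of 2. The script was tested on simulated counts. Total counts ranged from 19336303 to 28934030 and the common biological coefficient of variation was 0.101; reads carry no molecular identifiers.

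Symbols came from a current table, with GENCODE 29 filling gaps (93.8% of identifiers), positions and lengths from GENCODE 29, promoters and miRNAs from RefSeq; windows overlapping an exon were not printed. Named genes were the 12 largest changes each way among genes that passed with 1 sign at all 3 times and averaged 2 or more on the log2 CPM scale, up to 4 per list by p, the 5 smallest p of the other tests, BTK and CXCR4; other list members were named after their values were seen. A listed gene that is not reported here was left out of the lists and markers. The comparison, its lists and its rules were chosen with earlier results of these data known. Alternatives were DESeq2 1.42.0, limma 3.58.1, other scalings, filters, libraries left out, the column pairing of the descriptions, and removal of length and GC trends. Time pairs the libraries of the groups, since the labels name it, and was the block.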

Additional observations from a re-analysis of the deposited data

Results flagged for a closer look

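The difference between the combination and SPX5551 changed with time for 2 genes, by a test of the linear change itself. For MRPL12 the log2 difference changed by -3.82 from 4 to 12 h, and for EBI3 by -2.20 (edgeR adjusted p = 0.0143 for each). Both rest on 1 library per treatment and time. The adjusted p was 0.259 for MRPL12 and 0.391 for EBI3 without the combination library of 12 h, and 0.0623 and 0.0765 without the SPX5551 library of 8 h. At 4 h EBI3 stood at 91.9 CPM with DMSO and with the combination, and at 53.9 CPM with SPX5551. The cause of the changes was not tested.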

How the results depend on the processing

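Every setting listed here was run on the whole table. The 1043 genes kept their direction in at least 1037 cases in all settings run except the filter of at least 1 CPM in 3 libraries, which tested fewer genes (1027), and the pairing of the descriptions (136). Leaving out each library in turn gave 343 to 1302 genes (100 to 535 higher, 225 to 794 lower). Without the 4 h time point 129 genes passed (45 higher, 84 lower), without 8 h 443 (165 and 278) and without 12 h 568 (299 and 269). Fitting the 6 libraries alone with time as the block that pairs the groups gave 496 (247 and 249), and with no block for time 5 (0 and 5); added after seeing the data, the 6 libraries without the SPX5551 library of 12 h gave 615 (298 and 317). With no filter on low counts 1788 passed (957 higher), scaling by library size alone gave 871 higher, DESeq2 897 lower, and removal of the length and GC trends 1927 (1268 lower). The test of a difference between the ibrutinib effects gave 0 to 1 genes with a library left out, 2 with DESeq2, 32 with no filter, 1 without 8 h, 109 without 12 h, 8 without the ibrutinib library of 8 h and the SPX5551 library of 12 h, and 1 with the trends removed. The change with time gave 0 to 369 genes with a library left out, settings added after seeing the data, and 182 with no filter. Of the 107 named genes over 28 settings, 2556 values kept direction and side of the threshold, 293 lost and 76 gained significance and 67 reversed. The cause of these shifts was not tested.

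With columns assigned by the descriptions, 1896 genes passed (725 higher, 1171 lower) and 973 in the difference of effects, and all 67 reversals belong to that pairing. The log2 values that turned positive were TNF 1.96, EGR1 1.79, CD69 1.51, FJX1 0.44, CD83 1.36, CXCL10 0.77, LTA 0.80, DUSP2 1.12, NFKBID 1.39, RPS27AP16 1.74, HIVEP3 0.089, CSF1 0.70, PALD1 0.075, LAMP5 0.19, CCL4 2.49, BIRC3 0.34, TNFAIP2 0.76, TNFAIP3 0.67, NOP16 0.32, DKC1 0.077, MYC 0.23, ODC1 0.33, NME1 0.55 and MSMO1 0.13. Further ones were INSIG1 0.18, FDFT1 0.12, TRIB3 0.78, DDIT3 0.79, ATF3 1.34, XBP1 0.22, TSC22D3 0.36, CXCR3 0.18, PTPN6 0.30, FYN 0.079, IRF4 0.15, DERL3 0.32, HRK 0.48, BCL2L1 0.40, BCL2A1 1.36, CDK4 0.33 and LDHA 0.13. Those that turned negative were ENSG00000243679 -0.25, RAVER1 -0.98, SAMD9L -0.55, ENSG00000265517.1 -0.70, MIB2 -0.39, EVI5L -0.13, AAK1 -0.73, ARHGAP33 -0.27, ZCCHC24 -0.38, MAN2B2 -0.64, YPEL3 -0.23, COL9A2 -0.25, MXD3 -0.049, SESN3 -0.49, SESN1 -0.13, ULK1 -0.16, ATG2A -0.41, SAMD9 -0.69, S1PR4 -0.79, CCNE2 -0.15, CDT1 -0.089, CENPE -0.58, KIF20A -0.35, TOP2A -0.38, PFKL -0.17 and NDRG1 -0.19.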
